A study of Mus musculus with 8 samples.

Results

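The 10 genes described here encode components of the basement membrane that surrounds blood vessels: the collagen IV chains Col4a1 and Col4a2, the collagens Col15a1 and Col18a1, the laminin chains Lama4, Lamb1 and Lamc1, the nidogens Nid1 and Nid2, and the collagen-binding matrix protein Sparc. They were taken by name, with no measured value in the rule, from the 28956 genes of the deposited tables, and all 10 were measured. Their transcripts were counted in single stromal cells of mouse femurs. The question was how each gene differed between healing and unfractured bone, and in which cells. All mice were female C57BL/6 and 12 weeks old at collection. In the Fracture group the left leg was broken at 10 weeks of age by bending, held by a nail inside the marrow cavity, and collected 14 days later with the nail removed. The Control group was age-matched wild-type mice without a fracture. No transgene or sorted reporter was used, and both groups carried the same enrichment: the suspensions were depleted of blood lineage cells and then of cells carrying CD45 or CD117. Each group held 2 preparations, called Control 1, Control 2, Fracture 1 and Fracture 2 below, and each preparation gave 2 droplet libraries. The labels do not say whether a preparation was a separate animal or a pool, so the p-values measure only the spread between these preparations (n = 2 a group), which may be technical.

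A basement membrane is a thin sheet of matrix laid against the outer face of the endothelium and around smooth muscle cells and pericytes. Laminin heterotrimers, each made of an alpha, a beta and a gamma chain, form one network at the cell surface, collagen IV forms a second network that gives the sheet its mechanical strength, and nidogens link both. Growing vessels dissolve and rebuild this sheet, and in healing long bone new vessels enter the cartilage of the callus.

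Col4a1 and Col4a2 encode the chains of the collagen IV trimer found in nearly every basement membrane, and they lie head to head on chromosome 8. In the GENCODE M21 annotation of GRCm38, Col4a1 spans chr8:11198423-11312826 on the minus strand and Col4a2 chr8:11312805-11449287 on the plus strand, so their annotated starts are 21 bases apart. The 2 windows below show this shared start region; they run from 250 bases before the RefSeq start to 50 bases after it (RefSeq, GRCm38.p6), each on the strand of its gene, and 78 of their bases are the same stretch of DNA read from opposite strands. Windows of Col15a1 and Nid1 are printed as well, because Col15a1 was also called in osteoblast-like cells and Nid1 was not called in endothelial-like cells, unlike the collagen IV pair. Capitals mark the letters GGGCGG of a GC box, CCAAT of a CCAAT box or TATAA of a TATA box, searched on both strands, with no base of these windows in more than 1 match.
Col4a1, chr8:11312777-11313076, minus strand: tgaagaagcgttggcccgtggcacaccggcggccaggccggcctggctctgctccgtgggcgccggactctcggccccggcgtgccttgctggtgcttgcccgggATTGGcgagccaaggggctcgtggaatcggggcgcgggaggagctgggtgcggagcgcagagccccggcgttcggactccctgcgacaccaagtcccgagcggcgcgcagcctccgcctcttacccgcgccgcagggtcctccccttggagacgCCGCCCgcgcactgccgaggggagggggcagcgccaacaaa
Col4a2, chr8:11312555-11312854, plus strand: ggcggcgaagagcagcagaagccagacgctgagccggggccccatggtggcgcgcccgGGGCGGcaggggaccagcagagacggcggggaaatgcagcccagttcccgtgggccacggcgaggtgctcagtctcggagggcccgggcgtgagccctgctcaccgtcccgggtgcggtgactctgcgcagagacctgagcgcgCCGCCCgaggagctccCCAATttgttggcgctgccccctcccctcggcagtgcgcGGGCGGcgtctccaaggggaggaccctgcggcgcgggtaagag
Col15a1, chr4:47207762-47208061, plus strand: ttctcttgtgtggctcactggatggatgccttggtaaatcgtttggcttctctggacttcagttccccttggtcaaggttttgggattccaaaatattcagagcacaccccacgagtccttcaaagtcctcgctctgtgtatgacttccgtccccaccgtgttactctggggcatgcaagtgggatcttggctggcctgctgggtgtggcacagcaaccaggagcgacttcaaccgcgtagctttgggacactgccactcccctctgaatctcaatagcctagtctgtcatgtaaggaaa
Nid1, chr13:13437352-13437651, plus strand: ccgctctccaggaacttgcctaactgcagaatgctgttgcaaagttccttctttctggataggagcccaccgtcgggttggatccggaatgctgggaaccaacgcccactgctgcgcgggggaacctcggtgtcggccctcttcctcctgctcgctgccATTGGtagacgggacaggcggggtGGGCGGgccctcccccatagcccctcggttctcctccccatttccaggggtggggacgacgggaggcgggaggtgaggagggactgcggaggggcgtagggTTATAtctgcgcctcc
The Col4a1 window held 1 GC box and 1 CCAAT box, and the Col4a2 window held 3 GC boxes and 1 CCAAT box. The Col4a1 GC box (bases 260 to 265) and the last Col4a2 GC box (bases 258 to 263) are the same DNA in the shared stretch. This match lies past the start in both windows. The Nid1 window held 1 GC box, 1 CCAAT box and 1 TATA match, the last at bases 285 to 289 and so past the start. The Col15a1 window held none of the 3 motifs, which says only that these letters are not in this window. Of all 32851 RefSeq windows of this length, 35.7% held the GC box, 37.4% the CCAAT box and 24.9% the TATA letters. Such a match is a description of letters and not a binding site. Windows were matched for 7 of the 10 genes; Lama4, Lamc1 and Nid2 are named only.

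After the filters on cells, 45328 of 48903 barcodes remained, with 56543151 to 89126291 UMIs (unique molecular identifiers, which mark single captured RNA molecules) per library and a median depth per cell of 7711 UMIs (Control) and 11351 UMIs (Fracture). Libraries of the same preparation shared 13 to 23 barcodes and libraries of different preparations 10 to 20. The filters left out many more Control barcodes: 371 to 651 a Control library and 0 to 2 a Fracture library exceeded 25% mitochondrial UMIs. Cells were grouped after integration of the libraries, with the 10 genes and the other listed genes (157 in all) kept out of the clustering, and named from marker genes. Levels below are CPM, the UMIs of a gene per 1000000 UMIs of all genes in the cells of 1 class of 1 preparation, and are compared within a gene and not between genes. Changes are log2 fold changes of Fracture over Control with their SE from edgeR's quasi-likelihood test on these class sums, which also corrects for composition, and a gene was called when its Benjamini-Hochberg adjusted p over all genes tested in that class was under 0.05.

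Each class was checked against its markers in both groups, and several marker sums moved with the groups; those of the fibroblast-, osteoblast- and BMSC-like classes stand beside their results. Endothelial-like cells (ECs) numbered 1671 and 1255 in Control 1 and 2 and 1208 and 1410 in Fracture 1 and 2. The summed level of 8 EC markers, among them Emcn, Cdh5 and Pecam1, was 8687 and 8814 CPM in Control ECs and 6653 and 6544 CPM in Fracture ECs. Chondrocyte markers moved with the groups in these cells: all 8, among them Col2a1 and Acan, were higher in Fracture ECs, with a summed level of 2154 and 1005 CPM in Control and 13122 and 13389.8 CPM in Fracture. Erythroid markers in ECs were at 1051 and 206 CPM in Control and 3789 and 4011 CPM in Fracture (6 of 8 higher, 1 lower). Of 7 EC subclusters 3 carried 5 or 6 of the 8 markers of another class. They were led by Col2a1 and Acan (537 cells), by hemoglobin and cell cycle genes (476 cells) or by Bglap (122 cells). In this order they held 90 and 24, 39 and 47, and 10 and 7 cells of Control 1 and 2. Of Fracture 1 and 2 they held 210 and 213, 177 and 213, and 53 and 52 cells. Without them 1532 and 1177 Control ECs and 768 and 932 Fracture ECs remained, so the mixed part was larger in Fracture. Called doublets made up 28.7%, 3.15% and 25.4% of the cells of the mixed subclusters. Without these mixed subclusters, a setting chosen after seeing the data, the chondrocyte marker sum in ECs was 451 and 126 CPM in Control and 1372 and 1423 CPM in Fracture, and the EC marker sum was 9411 and 9237 against 8668 and 8275 CPM. The erythroid marker sum in ECs was then 319 and 175 CPM in Control and 993 and 687 CPM in Fracture. Smooth muscle-like cells numbered 687 and 207 in Control and 161 and 155 in Fracture; their own marker sum was 42217 and 38892 CPM in Control and 19823 and 22279 CPM in Fracture, with erythroid markers at 77.6 and 163 CPM against 5357 and 7862 CPM and fibroblast markers at 741 and 749.9 CPM against 1933 and 2599 CPM (5 of 8 higher). Without integration 99.1% of the Control and 87.0% of the Fracture cells of this class were again smooth muscle-like, and 6.33% of the Fracture cells fell with fibroblast-like and 4.75% with chondrocyte-like cells; the part of these shifts in the results was not tested. The erythroid marker sum in erythroid-like cells was 16382.5 and 31528 CPM in Control and 124051 and 162407 CPM in Fracture. Of its 8 markers 7 were higher and 1 lower, so this class also differed between groups. Erythroid-like cells, which should lack the 10 genes, were taken as the level of free RNA. It was 0 to 18.2 CPM in every preparation for each gene but Sparc, which reached 1501 and 435 CPM in Control and 9148 and 6499 CPM in Fracture erythroid-like cells. Other blood classes, with few Fracture cells, held more of some genes: Col4a1 was at 64.2 and 50.04 CPM in granulocyte-like cells of Fracture 1 and 2 (88 and 96 cells) and at 103 and 51.1 CPM in megakaryocyte-like cells (21 and 21 cells), where Col15a1 was at 103 and 15.7 CPM. Low levels are compared with erythroid-like cells below, and a higher level of free RNA was not tested.

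In ECs, 9 of the 10 genes rose after fracture and 0 fell. Of all genes tested in ECs, 17.4% were called higher and 15.6% lower. The genes were proposed with earlier results of these data known, so their counts here and below are descriptions beside the background and not independent tests of the set. The median log2 fold change was 1.01 over the 10 genes and 0.0080 over all genes tested. Smooth muscle-like cells, a class that also carried the pericyte markers Rgs5, Kcnj8 and Abcc9, gave the same count, 9 higher and 0 lower, with a median of 1.53 against -0.0025 over all genes, of which 15.5% were called higher and 13.9% lower. BMSC-like cells (bone mesenchymal stromal cells) went the other way for most of the set: 6 genes fell and 3 rose, with a median of -0.96 against -0.028, where 25.7% of all genes were called higher and 26% lower. The count of 3 higher is thus near the background, and the makeup of this class differed between groups, as described below.

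In osteoblast-like cells 1 of the 10 genes rose and 1 fell, where 9.61% of all genes were called higher and 6.5% lower. In fibroblast-like cells 2 rose and 0 fell, where 8.02% were called higher and 7.85% lower. Chondrocyte-like cells had 5 genes higher and 0 lower, where 19.1% were called higher and 18.1% lower. The median log2 fold change of the 10 genes was 0.94 in osteoblast-like, 0.93 in fibroblast-like and 0.54 in chondrocyte-like cells. Over all genes tested it was -0.0043, -0.0072 and -0.0061. In osteoblast-like cells several members lay within the range of free RNA. No gene of the set was called in the same direction in all 6 classes. Col18a1, Lama4 and Lamb1 were called higher in 4 classes each, Col4a1 and Col4a2 in 2.

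**Figure D1:**
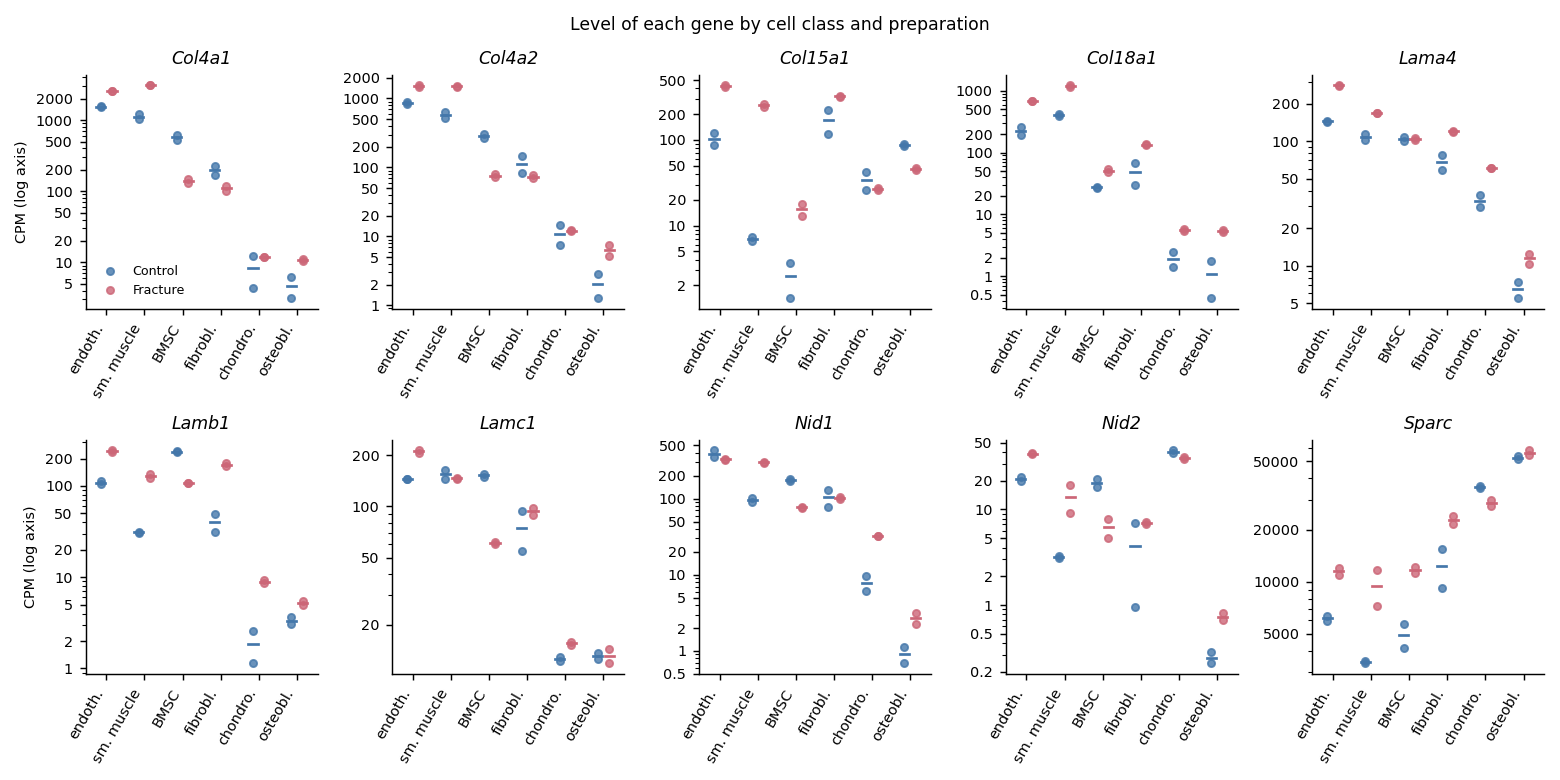
Level of each of the 10 genes (CPM, log axis) in the 6 stromal classes, with a point for each of the 4 preparations, Control and Fracture. Collagen IV is highest in the endothelial-like and smooth muscle-like classes in both groups, and in BMSC-like cells its Control points, 526 and 629 CPM for Col4a1, lie above its Fracture points, 132 and 147 CPM.

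**Figure D2:**
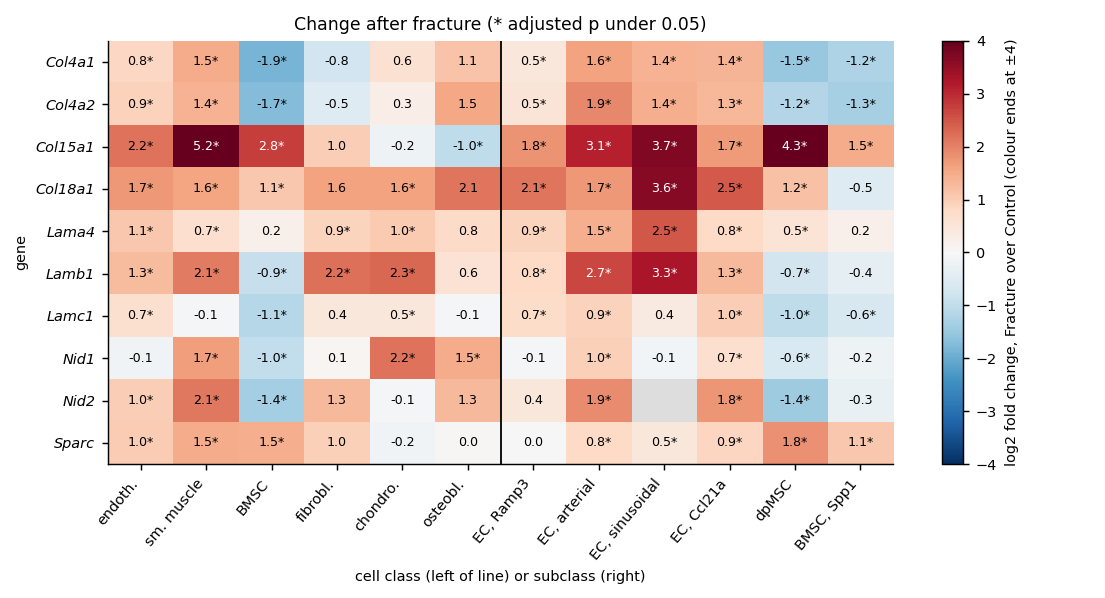
Log2 fold change of Fracture over Control for the 10 genes in the 6 classes and, right of the line, in 4 endothelial-like and 2 BMSC-like subclusters, as colours with the value printed in each cell and an asterisk on those with an adjusted p under 0.05 (edgeR; a grey cell was not tested). The endothelial-like and smooth muscle-like columns are higher in all but 1 gene each, and the BMSC-like column is lower for 6 genes.

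Collagen IV rose in both vessel-wall classes. In ECs, Col4a1 stood at 1573 and 1521 CPM in Control 1 and 2 and at 2535 and 2576 CPM in Fracture 1 and 2, a log2 fold change of 0.84 ± 0.10 (SE; adjusted p = 0.0105). Col4a2 stood at 833 and 880.0 CPM in Control and 1443 and 1558 CPM in Fracture ECs (0.93 ± 0.10, adjusted p = 0.00953). For both chains the Fracture preparations lay above the Control preparations with a gap several times the spread within a group. The rise in smooth muscle-like cells was from 1047 and 1203 CPM to 3104 and 3109 CPM for Col4a1 (1.49 ± 0.17, adjusted p = 0.00338) and from 528 and 632 CPM to 1484 and 1499.7 CPM for Col4a2 (1.39 ± 0.16, adjusted p = 0.00357). The order of classes changed with it: in Control ECs held the highest Col4a1 level, and in Fracture smooth muscle-like cells did, with no overlap between the preparations of these classes in either group. For Col4a2 the Fracture values of both classes overlapped.

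The ratio of the pair varied by class. UMIs of Col4a2 per UMI of Col4a1 were 0.529 to 0.605 over the 4 preparations in ECs, 0.478 to 0.526 in smooth muscle-like cells and 0.485 to 0.548 in BMSC-like cells, ranges that span both groups. It was 0.486 to 0.689 in fibroblast-like cells, a wider range, at Col4a1 levels that span those of Fracture BMSC-like cells. In osteoblast-like and chondrocyte-like cells, where both genes were under 15 CPM, the ratio was 0.406 to 0.733 and 1.01 to 1.75. Collagen IV fell in BMSC-like cells, by -1.86 ± 0.13 for Col4a1 and -1.72 ± 0.11 for Col4a2, with 269 and 305 CPM of Col4a2 in Control and 72 and 80.4 CPM in Fracture (adjusted p = 0.00181 and 0.00156). In fibroblast-like cells Col4a1 was at 168 and 226 CPM in Control and 101 and 119 CPM in Fracture (-0.75 ± 0.18, adjusted p = 0.0532), which did not pass the test, and the osteoblast- and chondrocyte-like levels, 3.13 to 12.4 CPM, lay within the range of free RNA.

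Col15a1 and Col18a1 encode collagens XV and XVIII, which carry long sugar chains and sit at the outer face of the basement membrane; the C-terminal fragment of collagen XVIII is endostatin. Both rose in vessel-wall cells. Col15a1 went from 120.4 and 86.6 CPM in Control ECs to 417 and 437 CPM in Fracture ECs (2.17 ± 0.17, adjusted p = 0.00806). Its level in smooth muscle-like cells was near that of free RNA in Control, 7.39 and 6.59 CPM, and reached 241 and 266 CPM in Fracture, the largest change of any member in the 6 classes (5.16 ± 0.18, adjusted p = 0.00136). Both Fracture preparations were high and both Control preparations low. Fibroblast-like cells, whose markers were higher in Fracture smooth muscle-like cells, carried 328 and 321 CPM in Fracture. With cells grouped without integration, the change of Col15a1 in smooth muscle-like cells was 4.93 ± 0.28 (adjusted p = 0.00252) and that of Lamb1 in smooth muscle-like cells 2.24 ± 0.19 (0.0034).

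Col18a1 went from 256 and 193 CPM to 675 and 688 CPM in ECs (1.72 ± 0.15, adjusted p = 0.00806) and from 422 and 389 CPM to 1238 and 1140.0 CPM in smooth muscle-like cells (1.57 ± 0.15, adjusted p = 0.0026). Its highest level in both groups was that of smooth muscle-like cells. Col15a1 was also found well outside the vessel wall. Fibroblast-like cells had its highest Control mean, with the spread between preparations, 225 and 117 CPM, overlapping that of ECs, and osteoblast-like cells stood at 90.9 and 84.5 CPM. It was the only member to fall in osteoblast-like cells, to 45 and 46.6 CPM (-1.0 ± 0.075, adjusted p = 0.0062), while it was called higher in ECs, smooth muscle-like and BMSC-like cells.

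The laminin chains moved less evenly. Lama4, Lamb1 and Lamc1 encode the alpha 4, beta 1 and gamma 1 chains, which together form an endothelial laminin. In ECs, Lama4 stood at 146 and 142 CPM in Control and 281 and 278 CPM in Fracture (1.08 ± 0.057, adjusted p = 0.00713), Lamb1 at 112 and 104 against 245 and 235 CPM (1.27 ± 0.065, adjusted p = 0.00713), and Lamc1 at 146 and 145 against 214 and 208 CPM (0.65 ± 0.058, adjusted p = 0.00835). All 3 chains were higher in both Fracture preparations, with the smallest change in Lamc1.

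The chains diverged in smooth muscle-like cells. Lamb1 rose from 31.4 and 30.5 CPM to 134 and 122 CPM (2.07 ± 0.15, adjusted p = 0.00166) and Lama4 from 103 and 114 CPM to 167 and 169 CPM (0.66 ± 0.13, adjusted p = 0.0168). Lamc1 was at 146 and 164 CPM in Control and 146 and 147 CPM in Fracture, with overlapping groups (-0.053 ± 0.13, adjusted p = 0.791). The Lama4 call did not hold when a Fracture preparation was left out (adjusted p = 0.085 without Fracture 1 and 0.105 without Fracture 2), although its fold change stayed at 0.67 and 0.62.

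Lamb1 also rose in fibroblast-like cells, from 31.2 and 48.9 CPM to 178 and 166 CPM (2.21 ± 0.22, adjusted p = 0.011), as did Lama4, from 58.7 and 77.4 CPM to 118 and 121 CPM (0.90 ± 0.15, adjusted p = 0.0274). These were the 2 genes called in that class. Markers moved with the groups there too: the summed fibroblast markers were at 21049 and 22786 CPM in Control and 7867 and 8349.9 CPM in Fracture, the chondrocyte markers at 3723 and 3352 against 11983 and 10606 CPM, with 7 of 8 higher in both Fracture preparations, and the erythroid markers at 36.7 and 155 against 1598 and 1813 CPM; their part in these changes was not tested. In chondrocyte-like cells Lama4 went from 36.7 and 29.7 CPM to 61.3 and 61.4 CPM (1.03 ± 0.11, adjusted p = 0.00604), well over its free-RNA level of 0.337 to 10.7 CPM. Lamb1 and Lamc1 rose there by 2.31 ± 0.32 and 0.46 ± 0.066, but Lamb1, at 2.56 and 1.14 CPM in Control and 9.27 and 8.56 CPM in Fracture, lay close to its level in erythroid-like cells, 2.15 and 0.843 and 7.87 and 3.4 CPM, and the part of free RNA in its change was not tested. Lamc1 went from 12.9 and 12.3 CPM to 15.9 and 15.3 CPM. In erythroid-like cells it went from 2.15 and 0.632 CPM to 8.43 and 4.24 CPM, and the part of free RNA in the Lamc1 change was not tested either. In BMSC-like cells Lamb1 fell from 233 and 239.6 CPM to 109 and 109 CPM (-0.93 ± 0.068, adjusted p = 0.00187) and Lamc1 from 149 and 156 CPM to 61.4 and 59.8 CPM (-1.14 ± 0.073, adjusted p = 0.00151), while Lama4, at 100.5 and 108 CPM and 106 and 103 CPM, overlapped between groups (0.20 ± 0.078, adjusted p = 0.0945; 0.0351 without Control 2).

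Nid1 and Nid2 encode the nidogens, which bind both laminin and collagen IV. Nid1 was the only member not called in ECs: it stood at 349.9 and 429.7 CPM in Control and 325 and 331 CPM in Fracture (-0.13 ± 0.12, adjusted p = 0.454). The Control values were the higher ones here, and without the mixed subclusters the groups overlapped (379 and 446 CPM in Control and 405 and 409 CPM in Fracture, log2 fold change 0.06). In smooth muscle-like cells Nid1 rose from 91.4 and 101 CPM to 305 and 294 CPM (1.66 ± 0.13, adjusted p = 0.00199), and in chondrocyte-like cells from 9.65 and 6.09 CPM to 32.8 and 32.1 CPM (2.18 ± 0.23, adjusted p = 0.00588), where free RNA of Nid1 was 1.01 to 4.67 CPM. The osteoblast-like call of Nid1 was on levels of 1.12 and 0.685 CPM in Control and 2.29 and 3.14 CPM in Fracture (1.5 ± 0.33, adjusted p = 0.046), which lie at those of free RNA, and it did not hold when either Fracture preparation was left out (adjusted p = 0.183 and 0.259). In BMSC-like cells Nid1 fell from 171 and 181 CPM to 78.7 and 76.4 CPM (-0.99 ± 0.074, adjusted p = 0.0019).

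Nid2 was a low gene in the vessel wall and stood highest in chondrocyte-like cells among Control classes. In ECs it went from 19.9 and 21.9 CPM to 37.8 and 39.2 CPM (1.00 ± 0.11, adjusted p = 0.00997). In chondrocyte-like cells it was at 38.7 and 41.5 CPM in Control and 35.8 and 33.5 CPM in Fracture (-0.06 ± 0.073, adjusted p = 0.553), and in Fracture ECs stood above it. The smooth muscle-like call rested on 3.08 and 3.29 CPM in Control and 18.2 and 9.13 CPM in Fracture (2.11 ± 0.49, adjusted p = 0.0264), where Fracture 1 was well above Fracture 2, and it did not hold without Control 1 (adjusted p = 0.0706), Fracture 1 (0.254) or Fracture 2 (0.0525). In BMSC-like cells Nid2 fell from 17.2 and 21 CPM to 5.0 and 8.0 CPM (-1.36 ± 0.27, adjusted p = 0.0149; 0.0596 without Fracture 1).

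Sparc encodes osteonectin, a calcium- and collagen-binding protein that aids collagen assembly and is abundant in bone matrix, and it was the most widely detected member. Osteoblast-like cells held its highest level, 53373 and 51258 CPM in Control and 57769 and 54659.9 CPM in Fracture (0.035 ± 0.33, adjusted p = 0.949), followed by chondrocyte-like cells with 34929 and 35933 and 29741 and 27688 CPM. In ECs Sparc went from 6376 and 5931 CPM to 12058 and 11042 CPM (1.03 ± 0.20, adjusted p = 0.0251). Beside this rise stand the higher chondrocyte markers of the Fracture ECs, their osteoblast markers, at 2033 and 2250.0 CPM in Control and 3777 and 4743 CPM in Fracture (6 of 8 higher), and the free-RNA level of Sparc, which rose from 1501 and 435 CPM to 9148 and 6499 CPM in erythroid-like cells. Without the mixed subclusters Sparc was at 5589.6 and 5099 CPM in Control ECs and 6675 and 6283 CPM in Fracture ECs, still higher in both Fracture preparations but no longer called (0.36 ± 0.15, adjusted p = 0.136).

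Sparc in smooth muscle-like cells was at 3499.5 and 3374 CPM in Control and 11654 and 7278 CPM in Fracture (1.49 ± 0.28, adjusted p = 0.0147). Fracture 1, the higher preparation, also had the higher chondrocyte marker sum in this class, 9717 CPM against 3122 CPM in Fracture 2 and 949 and 177 CPM in Control. Its osteoblast marker sum was 4686 CPM, against 787 CPM in Fracture 2 and 806 and 857 CPM in Control (3 of 8 higher in both Fracture preparations). Free RNA of Sparc was at 9148 and 6499 CPM in Fracture erythroid-like cells. The part of these markers and of free RNA in the Sparc change was not tested. In BMSC-like cells Sparc rose from 5719 and 4126 CPM to 12243 and 11307 CPM (1.45 ± 0.30, adjusted p = 0.017), a call lost without Fracture 1 (adjusted p = 0.110) or Fracture 2 (0.0973). Chondrocyte markers in this class were at 723 and 333 CPM in Control and 2757 and 3054 CPM in Fracture (8 of 8 higher) and fibroblast markers at 110.4 and 35.3 against 737 and 805 CPM (6 of 8 higher), and their part in the change was not tested.

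Within the EC class most members also rose in each of the 4 subclusters tested. These carried 1 to 3 of the 8 markers of another class, against 5 or 6 in the mixed subclusters. Without the mixed subclusters 8 of the 10 genes were called higher, where 14.5% of all genes were, with a median log2 fold change of 1.10. Arterial-like ECs, named from Gja5, Gja4 and Sema3g among other markers, had all 10 genes higher, with a median of 1.67, where 7.6% of all genes were called higher. Sinusoidal-like ECs, which carried Stab2, had 7 of 9 tested genes higher (median 1.45; background 8.9%). A subcluster led by Ccl21a, C1qtnf9 and Vwf had 10 higher (median 1.31; background 5.57%), and the largest, led by Ramp3 and Kcne3, had 7 (median 0.63; background 11.2%). In these 4 subclusters 0 members were called lower. Of all genes, 5.39% (arterial-like), 7.1% (sinusoidal-like), 5.48% (led by Ccl21a) and 9.13% (led by Ramp3) were called lower, so these counts of 0 are near the background.

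Levels in the subclusters are given with their own changes. Col4a1 in the cells led by Ramp3 and Kcne3 was already at 2819 and 2634 CPM in Control and went to 3526 and 3533 CPM (0.47 ± 0.093, adjusted p = 0.026). Arterial-like ECs went from 1137 and 1247 CPM to 3367 and 3544 CPM (1.61 ± 0.10, adjusted p = 0.00453), and their Fracture level thus came close to that of the cells led by Ramp3 and Kcne3. Sinusoidal-like ECs had the lowest Col4a1 level in both groups, 756 and 699.5 CPM in Control and 1843 and 1832 CPM in Fracture (1.38 ± 0.083, adjusted p = 0.00047). Sinusoids of the marrow are known for a thin and discontinuous basement membrane.

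In sinusoidal-like ECs several members had large fold changes. EC subclusters were named on the cells of both groups together. Their own markers are not given by group, and the part of a difference in makeup was not tested. Col18a1 was at 18.5 and 19.1 CPM in Control and 209 and 248 CPM in Fracture (3.64 ± 0.16, adjusted p = 0.000313), Lama4 at 33.5 and 30.4 against 184 and 161 CPM (2.47 ± 0.14, adjusted p = 0.000435), and Lamb1 at 19.9 and 9.07 against 133 and 127 CPM (3.27 ± 0.29, adjusted p = 0.00181). Lamc1 in the same cells was 99.3 and 105 against 128 and 128 CPM (0.37 ± 0.12, adjusted p = 0.0799). Lamb1 in arterial-like ECs rose from 40.8 and 41.7 CPM to 255 and 246 CPM (2.68 ± 0.10, adjusted p = 0.00279). Whether the changes differed between subclusters was not tested.

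Nid1 was called in 2 of the 4 subclusters. It rose in arterial-like ECs, from 135 and 165 CPM to 273 and 279 CPM (0.96 ± 0.14, adjusted p = 0.0147), and in the cells led by Ccl21a, from 158 and 172 CPM to 258 and 264 CPM (0.66 ± 0.13, adjusted p = 0.0225). In sinusoidal-like ECs, where it was highest, it stood at 689 and 671 CPM in Control and 640.4 and 586 CPM in Fracture (-0.11 ± 0.087, adjusted p = 0.432). In the cells led by Ramp3 and Kcne3 it stood at 515 and 543 against 444 and 486 CPM (-0.091 ± 0.091, adjusted p = 0.514), so in both of these the Control values lay above the Fracture values without passing the test.

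The EC calls depended on having 2 Fracture preparations. With either Fracture preparation left out, so that the lone one was assumed to vary as the Control pair did, edgeR called 0 members and 0 of 14830 genes without Fracture 1 and 0 of 14816 without Fracture 2, although 9 members had an unadjusted p under 0.05 each time, as did 3668 and 3974 of all genes. The fold changes stayed close to those with all preparations, at 0.88 and 0.83 for Col4a1. With either Control preparation left out more of all genes were called than with all preparations. Counts of members are therefore not given here, and enter only the ranges in the section on processing. The log2 fold change of Nid1 was -0.28 ± 0.10 without Control 1 and 0.029 without Control 2.

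**Figure D3:**
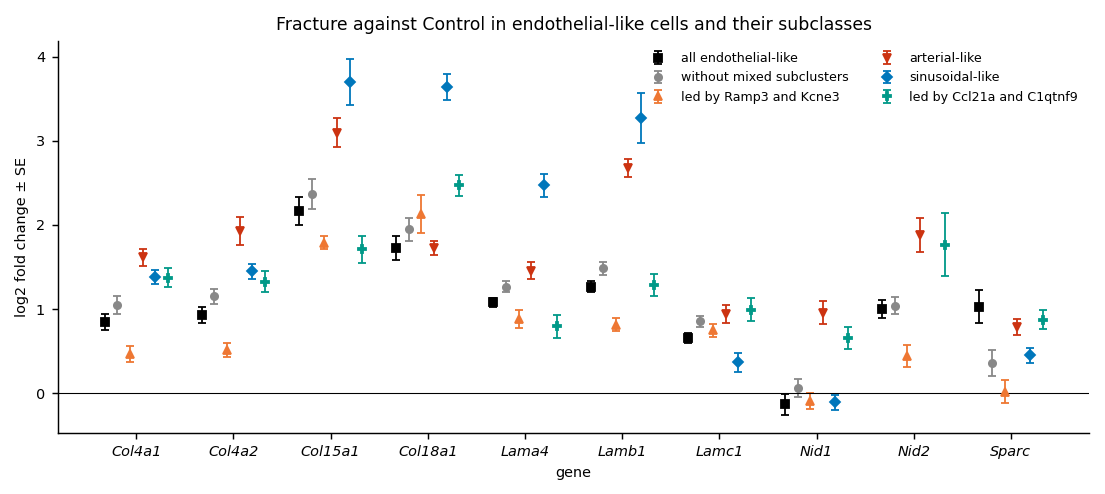
Log2 fold change of Fracture over Control (points) with its SE (bars) for the 10 genes in all endothelial-like cells, in those without mixed subclusters and in the 4 subclusters tested. Most points lie above 0; Nid1 lies near 0 in all ECs, at 0.96 in arterial-like and -0.11 in sinusoidal-like ECs.

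The BMSC-like class was not the same kind of cell in both groups, and its values are given with that limit. It held 2598 and 1717 Control cells and 1011 and 1096 Fracture cells. The sum of its 8 markers, among them Cxcl12, Lepr and Adipoq, was 31198 and 32145 CPM in Control and 2176 and 2547 CPM in Fracture, and all 8 were lower in Fracture, so that the name fits the Control cells much better than the Fracture cells. When cells were grouped without integration, 80.9% of the Control cells of this class were again BMSC-like, but only 8.26% of the Fracture cells (174 cells) were; 48.5% of the Fracture cells fell with osteoblast-like and 40.2% with fibroblast-like cells. In the cells that stayed BMSC-like, Col4a1 was at 736 and 766 CPM in Control and 496 and 570.2 CPM in Fracture. In those that fell with osteoblast-like cells it did not fall, at 77.5 and 66.1 CPM in Control and 95.6 and 100.4 CPM in Fracture. In those that fell with fibroblast-like cells it was at 134 and 142 CPM in Fracture. That part held only 13 cells of Control 1, at 138 CPM, and 0 of Control 2. With classes formed without integration edgeR called 0 members in BMSC-like cells and 4 had an unadjusted p under 0.05, against 212 of 12937 genes called; Col4a1 then had a log2 fold change of -0.44 (adjusted p = 0.121) and Col4a2 of -0.15 (0.503). The fall of the members in the class and its change in makeup cannot be told apart.

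The BMSC marker sum was also lower in Fracture in both subclusters tested. Diaphyseal-like cells (dpMSC, with a marker sum of 50642 and 44117 CPM in Control and 6832 and 8075 CPM in Fracture) had 4 genes higher and 6 lower, where 19.1% of all genes were called higher and 17% lower. In them Col4a1 went from 798 and 807 CPM to 240.3 and 253 CPM (-1.52 ± 0.094, adjusted p = 0.000682) and Lamb1, of which BMSC-like cells held the highest Control level of any class, from 337 and 312 CPM to 165 and 177 CPM (-0.74 ± 0.094, adjusted p = 0.00378). A subcluster led by Spp1, Dmp1 and Wif1 (marker sum 6303 and 7487 against 1453 and 1322 CPM) carried 3 of 5 metaphyseal markers, but the osteoblast-lineage genes Spp1 and Dmp1 lead it, so it stays unnamed; it had 2 higher and 3 lower, where 10.5% were called higher and 9.25% lower. Col4a1 there went from 175 and 238 CPM to 86.8 and 74 CPM (-1.22 ± 0.18, adjusted p = 0.0135), so that the Control levels of the subclusters did not overlap and collagen IV was lower in Fracture in both. Col15a1 and Sparc were called higher in both; Sparc went from 4543 and 3598 CPM to 13781 and 11738 CPM in dpMSC-like cells and from 6196 and 4266 CPM to 10233 and 9529 CPM in the cells led by Spp1. Col18a1 rose in dpMSC-like cells (1.17 ± 0.15, adjusted p = 0.00401) and was -0.50 in the cells led by Spp1 (adjusted p = 0.0684).

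In the whole BMSC-like class Col15a1 went from 3.68 and 1.42 CPM to 13.1 and 17.9 CPM (2.77 ± 0.45, adjusted p = 0.00886; 0.0613 without Fracture 2) and Col18a1 from 28.2 and 26.4 CPM to 47.9 and 53.8 CPM (1.09 ± 0.10, adjusted p = 0.00285). Both levels were low beside those in vessel-wall cells, and those of Col15a1 lay at the range of its free RNA, 1.39 to 16.1 CPM.

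The calls in osteoblast-, fibroblast- and chondrocyte-like cells were lost when either Fracture preparation was left out. The summed osteoblast markers in osteoblast-like cells were at 106674 and 123807 CPM in Control and 45989 and 59025 CPM in Fracture, although 4 of the 8 were higher in Fracture and 3 lower. The chondrocyte markers in chondrocyte-like cells were at 85732 and 76811 against 90132 and 89689.6 CPM (3 of 8 higher, 3 lower). Other marker sums moved with the groups in chondrocyte-like cells. Osteoblast markers were at 7529 and 9063 against 13638 and 14424 CPM (4 of 8 higher, 3 lower). Erythroid markers were at 181 and 469 against 1203 and 1293 CPM (5 of 8 higher, 1 lower). The part of these shifts in the calls was not tested. Besides the genes given above, Col18a1 was called in chondrocyte-like cells at 2.43 and 1.38 CPM in Control and 5.79 and 5.29 CPM in Fracture (1.61 ± 0.24, adjusted p = 0.0127), which is at its level in erythroid-like cells, 1.23 and 1.22 and 2.81 and 4.67 CPM, and Lamc1 at 12.9 and 12.3 and 15.9 and 15.3 CPM (0.46 ± 0.066, adjusted p = 0.0111). Col18a1 in fibroblast-like cells was at 29.97 and 67.2 CPM in Control and 134 and 136 CPM in Fracture (1.6 ± 0.36, adjusted p = 0.0502), just short of the threshold. A lone Fracture preparation has no spread of its own, and few or none of all genes were called in these 3 classes then. The lost calls are thus not particular to the members. Fold changes of lost calls were similar for several genes, with Lama4 in chondrocyte-like cells at 1.06 without Fracture 1 and 1.04 without Fracture 2, and Lamb1 in fibroblast-like cells at 2.16 and 2.24. With either Control preparation left out more of all genes were called in these 3 classes. Counts of members are again left to the ranges in the section on processing. Among the changes that were then lower, Col4a1 in fibroblast-like cells was at -0.91 without Control 1 and -0.55 without Control 2. Col4a2 in fibroblast-like cells was at -0.85 without Control 1. Col15a1 in chondrocyte-like cells was at -0.49 without Control 2 but at 0.18 without Control 1.

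The difference of the Fracture effect between ECs and each other class was tested as a class-by-group term. This was a single fit over the 6 classes, with the preparation as a block. The block takes out what the classes of a preparation share. These p-values thus rest on the remaining spread of class sums from the same preparations, and not on more preparations. Of 50 differences, 25 passed. Against ECs, BMSC-like cells had 7 genes with a lower effect and 0 with a higher one, where 26.6% of all genes differed in either direction. Col4a1 differed by -2.73 ± 0.34 on the log2 scale (adjusted p = 1.42e-05) and Col4a2 by -2.67 ± 0.27 (1.35e-06). Smooth muscle-like cells had a higher effect in 3 genes and a lower one in 1, where 15.1% of all genes differed: Col15a1 (3.12 ± 0.35, adjusted p = 1.02e-05), Nid1 (1.81 ± 0.22, 1.97e-05) and Lamb1 (0.82 ± 0.21, 0.0115) were higher and Lamc1 (-0.68 ± 0.15, 0.00535) lower. The collagen IV difference between both vessel-wall classes did not pass (Col4a1 0.68 ± 0.34, adjusted p = 0.211).

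Osteoblast-like cells had 1 higher and 4 lower effects than ECs (background 23% of all genes), with Col15a1 furthest apart (-3.18 ± 0.20, adjusted p = 4.23e-08). Fibroblast-like cells had 1 higher, Lamb1 (1.06 ± 0.19, 0.000668), and 3 lower, Col4a1, Col4a2 and Col15a1 (background 16.8%). Chondrocyte-like cells had 2 higher, Nid1 (2.2 ± 0.21, 7.58e-07) and Lamb1, and 3 lower, Col15a1, Nid2 and Sparc (background 32.9%). Without the mixed EC and BMSC-like subclusters, 22 of the 25 held; the Sparc differences of osteoblast-like and chondrocyte-like cells (-0.32, adjusted p = 0.509, and -0.54, 0.177) and the Lamb1 difference of smooth muscle-like cells (0.60, 0.0627) did not. With Fracture 1 or Fracture 2 left out, 15 of the 25 passed each time.

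Shares of cells with a transcript were compared at a common depth. Cells were thinned to 1000 UMIs each; 92 of 2926 Control ECs and 0 of 2618 Fracture ECs were shallower and left out. The share of ECs with at least 1 UMI of Col4a1 was 59.4% and 62.6% in Control and 81.6% and 82.1% in Fracture, and unthinned 81.7% and 88% and 99.8% and 98.8%. Erythroid-like cells, with a median depth of 5884.5 UMIs in Control and 7089.5 in Fracture beside 4564.5 and 7856.5 in ECs, gave 1.67% and 0.647% in Control and 1.65% and 1.46% in Fracture. Col15a1 was found in 8.99% and 7.47% of thinned Control ECs and 29.9% and 30.8% of Fracture ECs (unthinned 25.6% and 23.6%, and 77% and 75.2%), with 0.176% and 0.139% and 0.729% and 1.04% in erythroid-like cells. For Col18a1 the shares were 17.4% and 14.6% against 40.3% and 41.4% (unthinned 40.6% and 37.8%, and 83.8% and 85.3%; erythroid-like 0.214% and 0.259%, and 0.218% and 0.483%). The Fracture preparations were above the Control preparations in each of these, and with 2 against 2 preparations the exact two-sided permutation test gives p = 0.333 at the lowest, so that no share could pass it.

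The thinned share of smooth muscle-like cells with Col4a1 went from 53.1% and 58.1% to 86.7% and 85.9% (unthinned 88.4% and 94.2%, and 97.5% and 96.8%). In BMSC-like cells it was 40.8% and 43.4% in Control and 10.7% and 12.1% in Fracture (unthinned 74.4% and 81%, and 32.3% and 37.4%), a share that in Fracture was still above that of erythroid-like cells. Sparc could not be read this way as well, because it was found in 93.1% and 92.8% of thinned Control ECs and 98.7% and 98.7% of Fracture ECs (unthinned 98.6% and 98.4%, and 99.9% and 100%), but also in 49.2% and 17.6% of Control and 59.8% and 57.8% of Fracture erythroid-like cells.

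**Figure D4:**
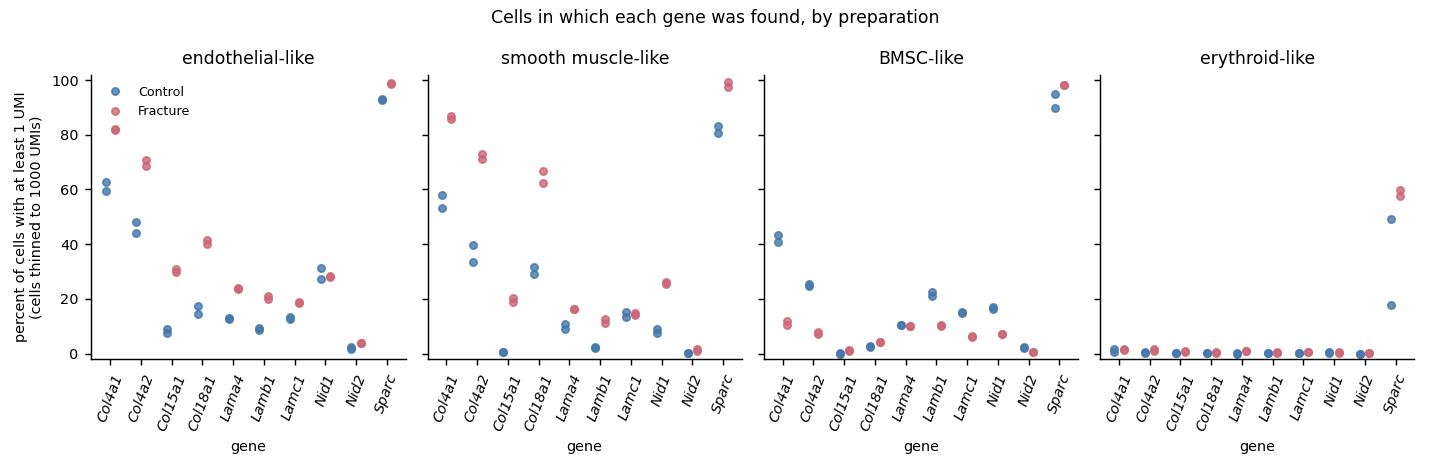
Percent of cells with at least 1 UMI of each of the 10 genes after thinning to 1000 UMIs, by class, with a point for each preparation of Control and Fracture and the erythroid-like cells as the level of free RNA. Col4a1 is above 80% in both Fracture preparations of endothelial-like cells and under 2% in erythroid-like cells; Sparc is above 15% even there.

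Counting all UMIs of a gene shows which cells held its transcripts, a measure that joins the level per cell with the number of cells recovered, which the fracture and the filters also changed. ECs held 54.2% ± 1.65 (SD, n = 2) of all Col4a1 UMIs in Control and 79.1% ± 1.37 in Fracture, while the part held by BMSC-like cells went from 32.3% ± 4.43 to 3.64% ± 0.0841. Of Lamb1 UMIs, BMSC-like cells, a class of different makeup in each group, held 70.7% ± 2.69 in Control and 16.8% ± 0.125 in Fracture, ECs 20.3% ± 0.155 and 43.7% ± 0.973, fibroblast-like cells 1.75% ± 0.210 and 22.4% ± 0.425, and chondrocyte-like cells 0.916% ± 0.820 and 12.5% ± 0.721. Col15a1 was held mostly by osteoblast-like cells in Control (52.1% ± 8.13) and by ECs in Fracture (43.4% ± 1.01), where osteoblast-like cells held 7.5% ± 0.108.

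The abundant chondrocyte-like cells, 2069 and 676 in Control and 6804 and 7122 in Fracture, held much of other members. They held 61% ± 13.2 of Nid2 UMIs in Control and 83.5% ± 1.64 in Fracture, 17.1% ± 8.62 and 48.8% ± 0.628 of Lama4 UMIs, and 2.73% ± 2.16 and 32.9% ± 1.39 of Nid1 UMIs. Sparc UMIs were held by osteoblast-like cells in Control (60.3% ± 5.98) and by chondrocyte-like cells in Fracture (62.7% ± 0.614), while ECs held 2.48% ± 0.712 and 3.28% ± 0.1001. Lamc1 was the member with the largest part in blood cells other than erythroid-like ones in Control, 13.2% ± 6.44, which was 0.552% ± 0.0154 in Fracture.

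**Figure D5:**
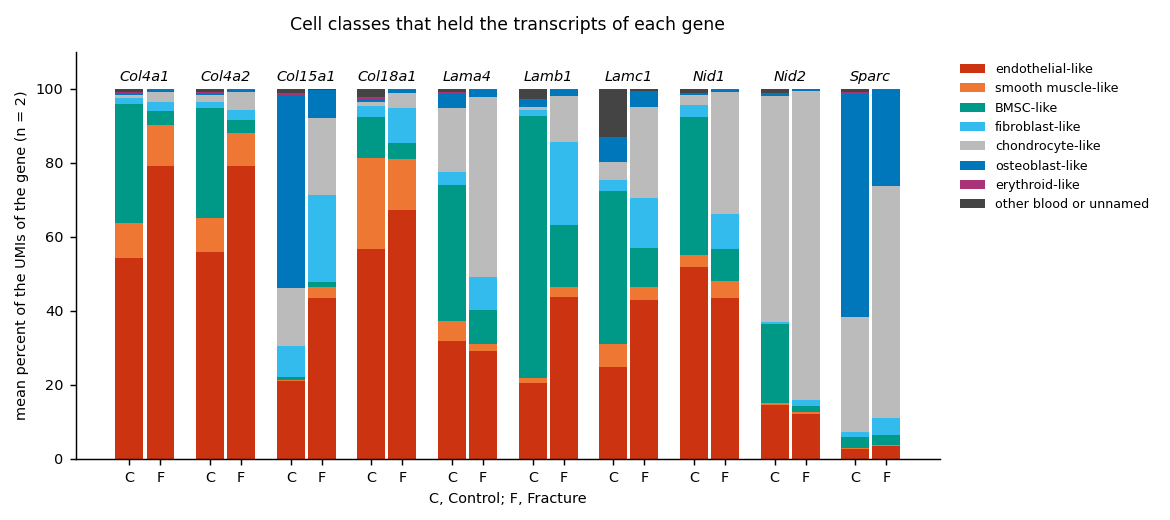
Mean percent of all UMIs of each of the 10 genes that each cell class held, as stacked bars over the 2 preparations of Control and of Fracture. Endothelial-like cells hold 79.1% of Col4a1 UMIs in Fracture, and the BMSC-like part of Lamb1 is 70.7% in Control and 16.8% in Fracture.

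The rest of the basement membrane did not rise as a whole in vessel-wall cells. Of 26 other components (further laminin chains, perlecan, agrin, collagen VIII, fibulins, netrin 4 and others), 21 were tested in ECs; 5 rose and 8 fell, with a median log2 fold change of -0.067 beside 1.01 for the 10 genes. Against the 17.4% and 15.6% of all genes called higher and lower in ECs, the count that rose was near the background and the count that fell above it. Smoc2, a calcium-binding relative of Sparc, rose most, from 6.71 and 3.68 CPM to 118 and 91.2 CPM (4.44 ± 0.33, adjusted p = 0.00806), and chondrocyte-like cells held 119 and 102 CPM of it in Control and 645 and 624 CPM in Fracture. Col4a3, a collagen IV chain of specialised membranes such as that of the kidney glomerulus, fell from 3.68 and 5.15 CPM to 0.449 and 0.875 CPM (-2.56 ± 0.42, adjusted p = 0.0188), while Col8a2 (collagen VIII) rose at a low level, from 1.84 and 0.858 CPM to 6.74 and 4.01 CPM (2.07 ± 0.47, adjusted p = 0.0353). In smooth muscle-like cells 4 of 20 rose and 9 fell (background 15.5% and 13.9%), with a median of -0.98; Fbln2, a fibulin of vessel matrix, rose from 3.39 and 4.12 CPM to 74.9 and 83.6 CPM (4.44 ± 0.24, adjusted p = 0.00136). In BMSC-like cells 11 of 23 rose and 7 fell (background 25.7% and 26%), and Fbln2 went from 2.37 and 1.42 CPM to 225 and 203 CPM (6.99 ± 0.27, adjusted p = 0.00106). A BMSC-like subcluster led by Acta2 and Fbln2 held 18 and 3 Control cells and 233 and 233 Fracture cells. Its part in this change was not tested.

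The counts in the remaining classes were 5 higher and 3 lower of 18 tested in osteoblast-like (background 9.61% and 6.5%), 3 and 5 of 22 in fibroblast-like (8.02% and 7.85%), and 7 and 4 of 25 in chondrocyte-like cells (19.1% and 18.1%). Ntn4, a netrin that binds laminin, fell in fibroblast-like cells from 149 and 185 CPM to 31.9 and 33.6 CPM (-2.27 ± 0.14, adjusted p = 0.00662). Fbln2 rose in chondrocyte-like cells as well, from 1.1 and 0.487 CPM to 22.7 and 23.8 CPM (4.9 ± 0.32, adjusted p = 0.00255).

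Most genes that fold and crosslink collagen rose in each of the 6 classes. In ECs 9 of 11 rose and 0 fell (median log2 fold change 0.74), where 17.4% of all genes were called higher; the shares of all genes given above hold for the other classes. Plod2, a lysyl hydroxylase, went from 55.8 and 43.5 CPM to 193 and 177 CPM (2.02 ± 0.14, adjusted p = 0.00756) and Serpinh1, the collagen chaperone HSP47, from 771 and 689 CPM to 1542 and 1493 CPM (1.18 ± 0.089, adjusted p = 0.00806). Without the mixed subclusters the EC counts were 5 higher and 2 lower, with a median of 0.27 (background 14.5% higher and 13.1% lower). The count that fell was thus near the background. Smooth muscle-like cells had 10 of 11 higher and 0 lower (median 1.39), among them Loxl2, a lysyl oxidase that crosslinks collagen IV, from 9.54 and 23 CPM to 114 and 96.2 CPM (2.83 ± 0.38, adjusted p = 0.00544), and Pxdn, the peroxidase that forms the sulfilimine bonds of collagen IV, from 27.7 and 11.5 CPM to 91.8 and 96.9 CPM (2.19 ± 0.37, adjusted p = 0.0105). The counts were 10 and 0 in BMSC-like, 8 and 2 in osteoblast-like, 9 and 0 in fibroblast-like and 8 and 0 in chondrocyte-like cells. Most of these enzymes serve other collagens as well.

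Receptors for basement membrane proteins showed no common direction. In ECs 2 of 13 rose and 3 fell, with a median of -0.16; both counts were near the background of 17.4% and 15.6%. Bcam, a laminin receptor, fell from 176 and 148 CPM to 45.6 and 46.6 CPM (-1.69 ± 0.10, adjusted p = 0.00725) and Itga1, the alpha chain of a collagen-binding integrin, from 134 and 168 CPM to 48.7 and 49.97 CPM (-1.5 ± 0.14, adjusted p = 0.00852), while the syndecan Sdc2 rose from 19.8 and 7.72 CPM to 55.4 and 44.7 CPM (1.98 ± 0.46, adjusted p = 0.0376). Bcam also fell in smooth muscle-like cells, from 529 and 485 CPM to 82.7 and 127 CPM (-2.25 ± 0.24, adjusted p = 0.00297), where 1 of 11 receptors rose and 4 fell (background 15.5% and 13.9%). The counts higher and lower were 4 and 7 of 13 in BMSC-like (background 25.7% and 26%), 1 and 0 in osteoblast-like (9.61% and 6.5%), 1 and 4 in fibroblast-like (8.02% and 7.85%) and 3 and 3 in chondrocyte-like cells (19.1% and 18.1%).

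Over the 24 class sums (6 classes by 4 preparations) the members' levels were compared pairwise. Log2 levels of Col4a1 and Col4a2 went together most closely (Pearson r = 0.993), and Col18a1, Lamc1 and Nid1 had r of 0.942, 0.963 and 0.915 with Col4a1. Sparc ran opposite to Col4a1 (r = -0.86), being highest where collagen IV was lowest, and Col15a1 was unlike every other member, with r of 0.0041 to 0.33. The 24 sums share classes, suspensions and depth, so these values are descriptions. Of 6598 genes with a mean of at least 20 CPM, those most like Col4a1 were Mndal (0.979), Ifi203, Smu1, Nhsl2 and Ddx47, those most like Lama4 were Sugt1 (0.973), Ier5l, Spata6, Psma1 and Psmd12, those most like Col15a1 were Plaur (0.780), Cd109, Hras, Ninj1 and Ndfip1, and those most like Sparc were Golph3 (0.956), Cgref1, Col11a1, Pycr1 and Slc35a2.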

How the data were processed

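Droplet single-cell libraries (10x Genomics 3' chemistry) were analysed from 4 Control and 4 Fracture libraries. The deposited tables hold raw UMI counts per gene and cell, which the authors made from reads of mm10; the submitters' processing notes list bcl2fastq 2.19.1.403, UMI-tools 1.0.0, STAR 2.7.3a and featureCounts 1.6.4, and how barcodes were chosen before deposit is not given for these tables in the sources used here (the study's methods name EmptyDrops for its other datasets). Cells with 500 to 6000 genes and at most 25% mitochondrial UMIs were kept. Libraries were integrated and clustered with Seurat 5.3.0 (30 dimensions, 12 components, resolution 0.1), after the 10 genes and the listed genes had been taken out of the variable genes. A cluster was named when it carried at least 50% of a list's markers. Doublets were called with scrublet in scanpy 1.11.5 (718 of 45328 cells) and removed only as an alternative. UMI counts were summed per class and preparation and tested with edgeR 4.0.16 (TMM, filterByExpr, quasi-likelihood, n = 2 preparations a group), with DESeq2 1.42.0 as an alternative. Scripts were tested on simulated counts. The members and lists were chosen with earlier results of these data known. All members were named; of each list up to 4 genes with the largest change among those called were named, except a gene that is not reported here. Same-numbered preparations were not treated as pairs, since their deviations correlated at 0.039 to 0.073 over genes in the 6 classes.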

Additional observations from a re-analysis of the deposited data

Results flagged for a closer look

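For 25 pairs of gene and class the Fracture effect differed from that in endothelial-like cells by the class-by-group test described above (edgeR, adjusted p under 0.05, of 50 tested). The values here are that difference in log2 fold change, the other class minus endothelial-like cells. In smooth muscle-like cells they were 3.12 for Col15a1, 1.81 for Nid1, 0.821 for Lamb1 and -0.68 for Lamc1. In BMSC-like cells, whose makeup differed between groups, they were -2.73 for Col4a1, -2.67 for Col4a2, -2.36 for Nid2, -2.21 for Lamb1, -1.82 for Lamc1, -0.9 for Lama4 and -0.888 for Nid1. In osteoblast-like cells they were -3.18 for Col15a1, -0.976 for Sparc, -0.715 for Lamc1, -0.674 for Lamb1 and 1.6 for Nid1, with Lamb1 and Nid1 on levels near those of free RNA. In fibroblast-like cells they were -1.53 for Col4a1, -1.34 for Col4a2, -1.13 for Col15a1 and 1.06 for Lamb1. In chondrocyte-like cells they were -2.37 for Col15a1, -1.2 for Sparc, -1.08 for Nid2, 0.956 for Lamb1 and 2.2 for Nid1. Without the mixed subclusters the Lamb1 difference of smooth muscle-like cells and both Sparc differences no longer passed.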

How the results depend on the processing

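With 2 preparations a group, calls depend on the spread of a single pair, and the depth limits what can be said of members under about 20 CPM. Of the fold changes recomputed under the alternatives, 668 kept their direction and side of the threshold, 61 gained and 57 lost a call and 13 changed sign; of the differences from endothelial-like cells 316 kept and 34 lost theirs. The 13 sign changes all concern members that were not called: Nid1 in endothelial-like cells (-0.28 to 0.029 with each preparation left out in turn, 0.060 without mixed subclusters), Lamc1 in smooth muscle-like cells (-0.12 to 0.0051, 0.16 without integration, 0.058 at resolution 0.3), Lamc1 in osteoblast-like cells (-0.18 to 0.034, 0.0028 with library totals only), Sparc in osteoblast-like cells (-0.11 without integration), Nid1 in fibroblast-like cells (-0.24 to 0.46, -0.021 with library totals only), and in chondrocyte-like cells Col15a1 (-0.49 to 0.18), Col4a2 (-0.090 to 0.82) and Nid2 (-0.12 to 0.0014), ranges again over the preparations left out. Members called moved from 9 to 0 in BMSC-like cells without integration, where all genes called moved from 7615 of 14728 to 212 of 12937. In osteoblast-like cells 2 members and 2218 of 13768 genes were called in the main setting. The members were 6 with DESeq2 (2060 of 13768 genes) and 7 with no filter on low counts (2864 of 22838). They were 7 with doublets removed (2309 of 13732) and 6 without integration (2923 of 14674). In fibroblast-like cells 2 members and 1998 of 12593 genes were called in the main setting. The members were 5 with DESeq2 (2197 of 12593 genes) and 6 with no filter (3418 of 21194). They were 4 without integration (2817 of 13312) and 4 at resolution 0.3 (2121 of 12515). The cause was not tested. With each preparation left out in turn the members called in either direction ranged from 0 to 10 in endothelial-like, 7 to 9 in smooth muscle-like, 7 to 10 in BMSC-like, 0 to 7 in osteoblast-like, 0 to 9 in fibroblast-like and 0 to 7 in chondrocyte-like cells, from 5 to 36 in endothelial subclusters (34 with all preparations), from 8 to 17 in BMSC-like subclusters (15), and from 15 to 37 for the differences (25). The calls over all genes moved as well. Without either Fracture preparation fewer of all genes were called in each of the 6 classes than with all preparations. Without either Control preparation more were called, except in smooth muscle-like cells without Control 1. The class ranges are thus not particular to the members. For the subclusters and the differences the calls over all genes are not given here. The median log2 fold change of all genes was -0.11 in endothelial-like, -0.22 in BMSC-like and -0.16 in chondrocyte-like cells with library totals, and 0.0080, -0.028 and -0.0061 with TMM.

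With the preparation number as a replicate block the members called were 8 in endothelial-like (Sparc lost, edgeR adjusted p = 0.059), 9 in smooth muscle-like and 9 in BMSC-like cells. All genes called there were 3521, 2338 and 6901, against 4716, 2998 and 7615 without it. The members were 1 in osteoblast-like (Nid1 lost, 0.096), 1 in fibroblast-like (Lama4 lost, 0.0587) and 5 in chondrocyte-like cells. All genes called there were 1134, 502 and 4278, against 2218, 1998 and 6426. Members called were 33 in endothelial and 14 in BMSC-like subclusters, for which the shares of all genes under the block are not given. The differences from endothelial-like cells, fitted with a block of preparations, numbered 19 with no replicate block. The numbers do not pair the preparations, so a call lost under the block is not a weaker effect.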

Other observations

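At the finer clustering resolution of 0.3 a group of 350 endothelial-like cells had Col4a2 and Col4a1 among its 10 leading genes, although both genes had been kept out of the clustering. It held 14 and 13 cells of Control 1 and 2 and 163 and 160 cells of Fracture 1 and 2, with a median of 14058.5 UMIs per cell, and its other leading genes included Aplnr, Plvap, Emcn and Cdh5. Among the components outside the 10 genes, Col4a5 in osteoblast-like cells was at 0.543 and 0.147 CPM in Control and 2.34 and 2.22 CPM in Fracture and Lamc3 at 2.4 and 2.79 against 0.381 and 0.323 CPM; Pxdn in chondrocyte-like cells was at 1.3 and 0.893 against 12 and 11.9 CPM (3.53 ± 0.16, edgeR adjusted p = 0.00145).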
